A study of Danio rerio with 15 samples.

Results

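The genes with the highest counts in control zebrafish testes were followed into depleted and recovering testes. They were chosen by their measured values: a gene belonged if its mean over the control libraries was at least 500 CPM (the gene's count multiplied by 1000000 and divided by the total of its library). The rule gave 192 of the 33752 listed genes, fewer than its limit of 300. Of these, 167 have a symbol, written in capitals where the name table uses the form of a human gene name, and 25 are given by identifier. The libraries came from testes of adult wild-type Danio rerio in 3 groups: control, depleted and recovering, with 4, 5 and 5 libraries analysed here. The series describes them as biological replicates. How testes were depleted, and how long they recovered, is not in the labels, and no group carries a transgene or mutation according to them.

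A testis contains germ cells, which pass from dividing spermatogonia through meiosis to flagellated sperm, and somatic cells, among them the Sertoli cells that hold the germ cells and the Leydig cells that make androgens. In fish, germ cells develop in synchronous groups inside cysts of Sertoli cells. Bulk RNA sequencing measures the mixture, so that fewer cells of a type and less RNA per cell cannot be told apart. A share of counts also depends on transcript length, which was not used here, so that an order by CPM is an order by counts and not by molecules.

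Library totals lay between 8123444 and 48646941 counts, and control replicate 5 was the largest. The control libraries held counts of the germ cell gene DDX4 (1173 ± 60.2 CPM), the Sertoli cell gene gsdf (776 ± 120 CPM) and the Leydig cell gene insl3 (702 ± 177 CPM, SD, n = 4 for all). These genes are members, so the rule itself required high control values of them. All 192 members were among the 21277 genes tested. The genes closest to the limit were ENSDARG00000020076 and ENSDARG00000058375 just inside, with control means of 503.1 and 502.6 CPM, and ENSDARG00000035423 and ENSDARG00000016485 just outside, with 499.8 and 498.7 CPM.

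The 192 genes held mean shares of 18.04, 21.2 and 19.4% of the library in control, depleted and recovering testes. The parts that single genes held in this share differed between groups. In control replicates 1, 3, 4 and 5 they held 17.86, 17.82, 18.02 and 18.46% of the counts, a mean of 18.04 ± 0.294% (SD, n = 4). In depleted replicates 1 to 5 they held 19.2, 24.3, 18.2, 21.5 and 22.8%, a mean of 21.2 ± 2.52% (SD, n = 5). In recovering replicates 1 to 5 they held 20.0, 18.5, 18.5, 22.3 and 17.8%, a mean of 19.4 ± 1.77% (SD, n = 5). Recovering libraries overlapped both other groups, and depleted libraries were the most uneven. With the mitochondrially encoded genes taken out of members and library totals, the means were 16.4, 16.6 and 16.5% in control, depleted and recovering testes.

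Within this share, 110 members had a log2 fold change under -1 in depleted against control testes, and together they held 10 ± 0.432% of control counts (SD, n = 4). Their share was 1.54 ± 1.15% in depleted and 7.66 ± 1.26% in recovering testes (SD, n = 5 each). The 57 members with a log2 fold change over 1 held 5.86 ± 0.694% of control counts, 18.1 ± 2.35% of depleted counts and 9.64 ± 2.62% of recovering counts. The remaining 25 members held 2.18, 1.52 and 2.14%. These 3 classes were cut from the comparison whose control values chose the members, and they are given as a description.

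**Figure D1:**
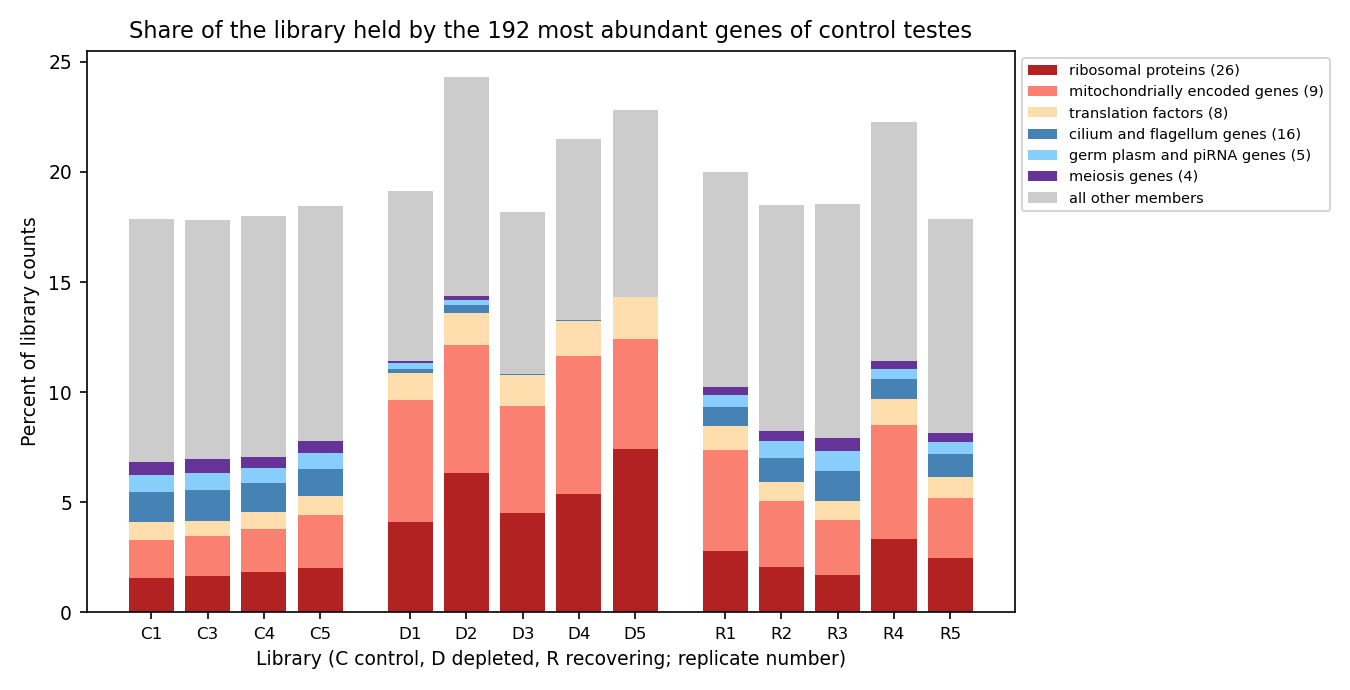
Percent of each library's counts held by the 192 members (bar height), divided by gene list, with the number of members of each list in the legend; C, D and R are control, depleted and recovering, followed by the replicate number. Ribosomal protein and mitochondrial genes fill much of the depleted bars, while the cilium, germ plasm and meiosis parts shrink there and return in the recovering bars.

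The limit of 500 CPM was reached by the mean of 70 members (36.5%) in depleted testes and of 139 (72.4%) in recovering testes. In control testes all members reached it by the rule, and members near the limit can miss it elsewhere through small differences. The median over members of the mean CPM was 682.3 in control, 249.3 in depleted and 684.9 in recovering testes. The mean was under 100 CPM for 60 members (31.2%) in depleted testes and for 0 in recovering testes. The whole library held 241 genes of at least 500 CPM in depleted and 194 in recovering testes, beside the 192 of control testes.

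Comparisons between the groups were fitted over all genes with edgeR's quasi-likelihood test, and a gene was called at a Benjamini-Hochberg adjusted p under 0.05. In depleted against control testes 174 members were called, 59 higher and 115 lower, where 66.3% of all genes tested were called, 34.2% higher and 32.1% lower. The median log2 fold change of the members was -1.68, against 0.03 over all genes. Since control values chose the members, nothing is read from these counts. Recovering against depleted testes is the comparison whose libraries the rule did not use. There 163 members (84.9%) were called, 112 higher (58.3%) and 51 lower (26.6%), where 59.2% of all genes tested were called, 28.7% higher and 30.5% lower. This comparison is still not independent of the rule, since by the same test only 0.451% of all genes were called between recovering and control libraries. Its counts are therefore a description too. Members were chosen for high counts, and the genes tested were not matched to them for abundance.

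The members leaned towards higher values in recovering than in depleted testes, which is a description under the same limit. Library values were also compared without a model. They come from the same libraries as the fit and add no independent result. For 120 members (62.5%) all 5 recovering values lay above all 5 depleted values, beside 25.6% of all genes tested. For 42 members (21.9%) they all lay below, beside 7.76% of all genes. The median log2 fold change of the members was 1.23, against -0.04 over all genes. Scaling by library totals in place of the trimmed mean of M-values (TMM) shifted the median of all genes to 0.26 in this comparison and to -0.34 in depleted against control testes. With library totals 120 members were called higher and 47 lower in recovering against depleted testes, where 36% of all genes tested were called higher and 21% lower. In depleted against control testes the same scale gave 58 members higher and 125 lower, where 26.2% of all genes were called higher and 40.4% lower. Without depleted replicate 4, 143 members and 10761 of all genes were called in recovering against depleted testes. Without depleted replicate 2, 173 members and 13874 of all genes were called, beside 163 and 12598 with all libraries.

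**Figure D2:**
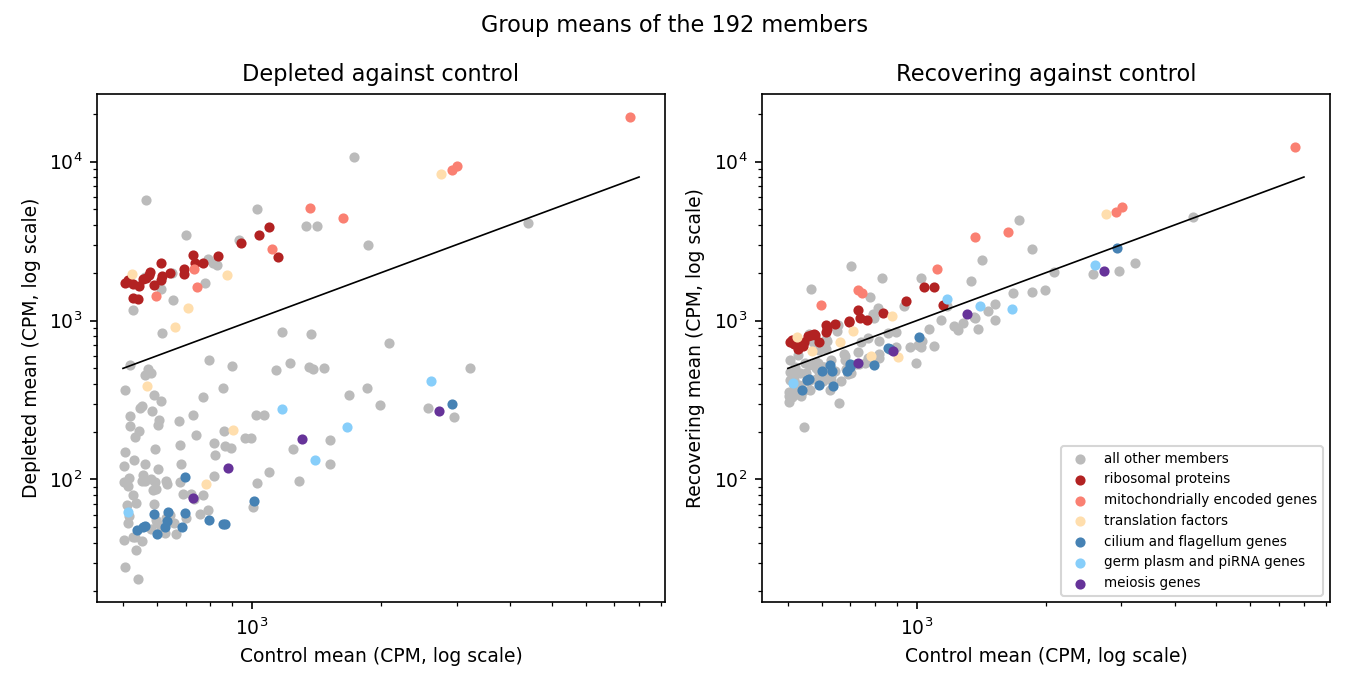
Mean CPM of each of the 192 members in depleted (left) and recovering (right) testes against its control mean, all axes logarithmic; the line marks equal means and colours mark gene lists. The points spread far above and below the line in depleted testes, with 60 means under 100 CPM, and lie near it in recovering testes.

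Ribosomal protein genes were the largest list among the members. The 26 members of the ribosomal protein list held 1.58, 1.65, 1.82 and 2.03% of the counts in the control libraries. They held 4.11, 6.32, 4.51, 5.37 and 7.42% in depleted replicates 1 to 5, and 2.81, 2.06, 1.69, 3.35 and 2.45% in recovering replicates 1 to 5. Depleted values lay above all others, and recovering values overlapped the control range in replicate 3. All 26 fell in recovering against depleted testes, and their log2 fold changes ran from -1.66 to -1.32 around a median of -1.53. Over all genes of the list tested, 74 of 75 fell and 0 rose. For this list and those below, the shares over all genes tested in this comparison were 28.7% higher and 30.5% lower.

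RPS2, a protein of the small ribosomal subunit, had 1017, 910, 1112 and 1338 CPM in the control libraries. Depleted replicates 1 to 5 had 2854, 4492, 3022, 4282 and 4743 CPM, and recovering replicates 1 to 5 had 1829, 1298, 940, 2391 and 1623 CPM. The depleted values lay above those of the other groups without overlap, and RPS2 fell by 1.60 on the log2 scale from depleted to recovering testes (SE 0.31, edgeR adjusted p = 0.00122). RPLP0, of the stalk of the large subunit, had the highest control mean of the list, at 1149 ± 87.9 CPM (SD, n = 4). Its means were 2510 ± 725 CPM in depleted and 1251 ± 261 CPM in recovering testes (SD, n = 5 each). RPSA2, which by its symbol is a ribosomal protein gene but lies outside the list and is named after its values were seen, had 1334 ± 98.3 CPM in control (SD, n = 4), 3940 ± 1032 CPM in depleted and 1774 ± 539 CPM in recovering testes (SD, n = 5 each). It fell by 1.49 on the log2 scale (SE 0.30, edgeR adjusted p = 0.0014). The largest falls of the list were those of RPL19, RPL12 and RPS3A, with log2 fold changes of -1.66, -1.65 and -1.64.

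Translation factors went both ways. Of 8 members, 5 fell in recovering against depleted testes and 3 rose. The elongation factor gene eef1a1l1, which codes for the protein that brings aminoacyl-tRNA to the ribosome, had 2863, 2474, 2665 and 3057 CPM in control libraries. In depleted replicates 1 to 5 it had 6240, 8111, 8019, 8713 and 10886 CPM, and in recovering replicates 5399, 4173, 3489, 5887 and 4591 CPM. The control, depleted and recovering ranges did not overlap, and it fell from depleted to recovering testes by 1.18 on the log2 scale (SE 0.26, edgeR adjusted p = 0.00263). EEF1G, of the exchange factor complex of elongation factor 1, fell by 1.65 on the log2 scale (SE 0.27, edgeR adjusted p = 0.000521). The poly(A)-binding protein gene pabpc1b rose by 1.21 (SE 0.30, edgeR adjusted p = 0.00504), while its paralogue pabpc1a had a log2 fold change of -1.22. The other 2 that rose were EIF4G3, a scaffold of translation initiation, and EIF5A2. How reads shared by such paralogues were counted is not given in the sources used here. Over all translation factor genes tested, 17 rose and 30 fell of 64, beside 28.7% higher and 30.5% lower of all genes tested.

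Among the other falls were TPT1, the translationally controlled tumour protein, and the transcript si:dkey-238c7.12. TPT1 had a mean of 934 ± 90.9 CPM in control (SD, n = 4), 3217 ± 456 CPM in depleted and 1235 ± 325 CPM in recovering testes (SD, n = 5 each). It fell by 1.71 on the log2 scale (SE 0.25, edgeR adjusted p = 0.000348), and its 5 depleted values, from 2601 to 3651 CPM, lay above every other library. The values of si:dkey-238c7.12 ranged from 2813 to 7592 CPM in depleted and from 708 to 3446 CPM in recovering testes, and it fell by 1.77 (SE 0.48, edgeR adjusted p = 0.0073) although these ranges overlapped.

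Mitochondrially encoded genes, which code for subunits of the respiratory chain and of ATP synthase, supplied 9 members. They held 1.72, 1.82, 1.95 and 2.41% of control libraries and 5.54, 5.83, 4.87, 6.26 and 4.99% of depleted replicates 1 to 5. In recovering replicates 1 to 5 they held 4.58, 2.97, 2.48, 5.15 and 2.74%. Recovering replicates 1 and 4 thus lay at or near the depleted range and replicates 2, 3 and 5 nearer the controls, all above the control maximum. Of the 9, 6 fell in recovering against depleted testes and 3 were not called: MT-ATP6, MT-ND1 and MT-ND2. With library totals as the scale, 3 of the 9 fell. Over all 13 such genes tested, 7 fell.

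MT-CO1, a catalytic subunit of cytochrome c oxidase and the gene with the highest control mean of all, had 7386, 7114, 7809 and 8142 CPM in control libraries. Depleted replicates 1 to 5 had 18865, 20013, 19234, 21963 and 15860 CPM, and recovering replicates 16274, 10788, 7057, 18383 and 9684 CPM. It fell from depleted to recovering testes by 0.93 on the log2 scale (SE 0.29, edgeR adjusted p = 0.0146), with overlapping ranges. MT-CO2 and MT-CO3, of the same enzyme, fell by 1.18 (SE 0.29, edgeR adjusted p = 0.0047) and by 1.16 (SE 0.31, edgeR adjusted p = 0.00712). No nuclear gene of oxidative phosphorylation was a member. Of 86 tested 7 rose and 17 fell, beside 28.7% higher and 30.5% lower of all genes tested.

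The genes of cilia and flagella showed the opposite course. The flagellum that drives sperm is built on an axoneme of microtubules moved by dynein arms and assembled by intraflagellar transport. The 16 members of this list held 1.39, 1.39, 1.29 and 1.23% of control libraries. Depleted replicates 1 to 5 held 0.173, 0.352, 0.0308, 0.0169 and 0.0133%, and recovering replicates 0.846, 1.09, 1.39, 0.902 and 1.04%. All recovering values lay above all depleted values. All 16 rose in recovering against depleted testes, and their log2 fold changes ran from 2.01 to 3.42 around a median of 2.95. With library totals edgeR called all 16 higher, and DESeq2 called 10. DESeq2 gave 29 of the 192 members no adjusted p, and every edgeR call that it did not share was of one of these.

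The axonemal dynein heavy chain gene dnah5l had 2161, 3246, 2701 and 3592 CPM in control libraries. In depleted replicates 1 to 5 it had 573, 860, 37.2, 19.1 and 5.07 CPM, and in recovering replicates 2177, 3362, 3783, 2194 and 2786 CPM. Recovering and control values overlapped, all depleted values lay below them, and the gene rose by 3.03 (SE 1.01, edgeR adjusted p = 0.0204). The heavy chains DNAH7, DNAH6 and DNAH2 rose by 3.42 (SE 0.69), 3.17 (SE 0.91) and 3.16 (SE 1.01). So did hydin, a protein of the central pair of axonemal microtubules, by 3.42 (SE 0.77), and EFHC2, of the inner wall of axonemal microtubules, by 3.13 (SE 0.99). Their edgeR adjusted p-values were 0.00158, 0.0101, 0.017, 0.00288 and 0.0162. SAXO2, a microtubule-associated protein of axonemes that the list did not hold, rose by 3.67 (SE 0.95, edgeR adjusted p = 0.00571), from a depleted mean of 23.5 CPM to 361 CPM.

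Of all cilium and flagellum genes tested, 100 of 120 rose and 6 fell. Those 6 were spag1a and the kinase anchor genes akap7, akap12b, AKAP11, akap13 and akap12a, named after their values were seen. The anchor proteins bind protein kinase A at many places in a cell.

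Of the 17 genes of the meiosis list, 4 reached the limit of 500 CPM in control testes. The 4 members were SYCP1 and sycp2, of the synaptonemal complex that holds homologous chromosomes together, HORMAD1, of the chromosome axis, and smc1b, a subunit of meiotic cohesin. Together they held 0.575, 0.613, 0.515 and 0.554% of control libraries. Depleted replicates 1 to 5 held 0.123, 0.183, 0.00659, 0.00692 and 0.00111%, and recovering replicates 0.353, 0.448, 0.563, 0.380 and 0.419%. Every recovering value exceeded every depleted one.

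SYCP1 had 2812, 3036, 2430 and 2630 CPM in control libraries, 387, 873, 49.6, 20.4 and 9.54 CPM in depleted and 1666, 1919, 2624, 1949 and 2099 CPM in recovering replicates 1 to 5. It rose by 2.69 (SE 0.91, edgeR adjusted p = 0.0221), and sycp2 by 2.60 (SE 1.0, edgeR adjusted p = 0.0389). The call of SYCP1 was lost without depleted replicate 3 (edgeR adjusted p = 0.0517). HORMAD1 and smc1b were not called, with fitted changes of 2.23 on the log2 scale (SE 1.05, edgeR adjusted p = 0.08) and 2.42 (SE 1.12, edgeR adjusted p = 0.0765). A standard error above 1 accompanied the wide spread of their depleted values, from 0.497 to 349 CPM for HORMAD1. Of the 4 members, DESeq2 called 1 higher, smc1b (2.46 on the log2 scale, DESeq2 adjusted p = 0.0235). It gave SYCP1 and sycp2 no adjusted p, so their calls have no check by DESeq2. With library totals edgeR called 2 of the 4. Over all meiosis genes tested, 8 of 17 rose and 0 fell.

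Germ plasm and piRNA genes code for proteins that mark germ cells and silence transposons in them. The 5 members held 0.769, 0.778, 0.685 and 0.713% of control libraries, 0.270, 0.246, 0.00694, 0.0265 and 0.000577% of depleted and 0.565, 0.741, 0.927, 0.457 and 0.523% of recovering replicates 1 to 5. Depleted replicates 1 and 2 were the high ones of their group, and all depleted values were below all recovering values. Of the 5, tdrd7a, a Tudor domain protein of germ granules, rose by 3.01 (SE 1.02, edgeR adjusted p = 0.0228), and 4 were not called. DESeq2 called all 5 higher, and edgeR with library totals called 3.

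DDX4, the RNA helicase also known as Vasa, had 1151, 1213, 1098 and 1230 CPM in control libraries. Depleted replicates 1 to 5 had 721, 557, 24.6, 85.5 and 1.39 CPM, and recovering replicates 1128, 1857, 1865, 982 and 990 CPM. All depleted values lay below all others, but they spanned more than 2 orders of magnitude, and the log2 fold change of 2.10 had an SE of 0.96 (edgeR adjusted p = 0.0731). PIWIL1, the piRNA-binding protein Ziwi, had 1029, 929, 14.0, 99.2 and 1.69 CPM in depleted replicates and from 1557 to 2946 CPM in recovering ones, with a fitted change of 2.23 on the log2 scale (SE 1.05, edgeR adjusted p = 0.0805). TDRD6, another Tudor domain protein, and DAZL, an RNA-binding protein of germ cells, had fitted changes of 2.27 on the log2 scale (SE 0.97, edgeR adjusted p = 0.0577) and 2.51 (SE 1.04, edgeR adjusted p = 0.0504). Without depleted replicate 2, DDX4, PIWIL1, TDRD6 and smc1b were called, with edgeR adjusted p-values of 0.0448, 0.0438, 0.0227 and 0.043. Over all genes of the list tested, 13 of 21 rose and 0 fell.

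**Figure D3:**
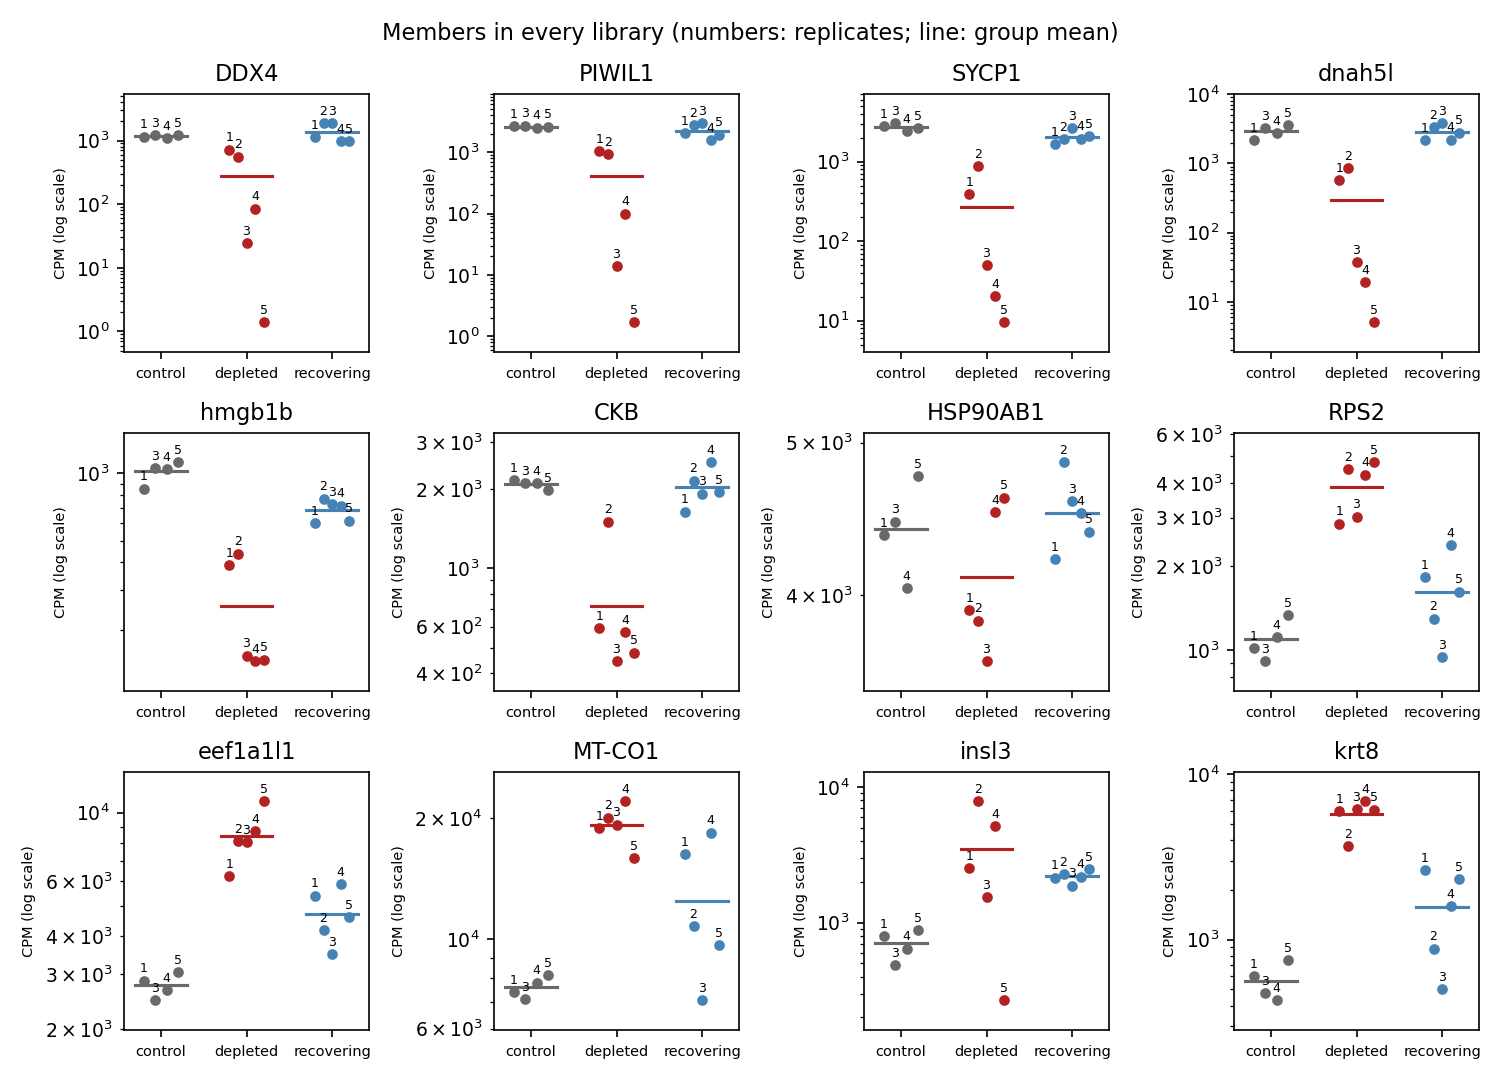
CPM of 12 members in every library on logarithmic axes; each point is a library labelled with its replicate number and the lines are group means. For DDX4, PIWIL1, SYCP1 and dnah5l depleted replicates 1 and 2 lie well above replicates 3 to 5, HSP90AB1 lies between 3631 and 4857 CPM, and RPS2, eef1a1l1, MT-CO1 and krt8 are highest in depleted testes.

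The depleted libraries differed among themselves in these germ cell genes and in other members. Over all 192 members, the highest depleted library exceeded the lowest more than 10-fold for 58, against 0 members in control and 0 in recovering testes. Among all genes tested, 22.2, 3.52 and 5.73% did so in depleted, control and recovering testes. Of the 25 meiosis, germ plasm and cilium members, 21 were highest in depleted replicate 2 and 4 in replicate 1. Of the same 25, 21 were lowest in replicate 5 and 4 in replicate 4. Of all 192 members, 106 were highest in depleted replicate 2 and 41 in replicate 5, and 90 were lowest in replicate 5. Under 5 CPM lay 0, 0, 6, 19 and 41 of the 192 members in depleted replicates 1 to 5.

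Markers of other cell types were higher in depleted testes. Stromal and smooth muscle markers held from 0.125 to 0.227% of control, from 0.775 to 2.34% of depleted and from 0.281 to 1.2% of recovering libraries, and 20 of their 23 genes tested fell in recovering against depleted testes. Leukocyte markers held from 0.0369 to 0.0874, from 0.212 to 0.444 and from 0.0261 to 0.127% in the same order, and 10 of 11 fell. Endothelial markers held from 0.00171 to 0.00357, from 0.00744 to 0.0233 and from 0.00289 to 0.00824%, and all 4 genes fell. Erythrocyte markers held from 0.0101 to 0.0366, from 0.0853 to 0.258 and from 0.0391 to 0.167%, and 1 of 6 fell. Of all genes tested, 30.5% fell in this comparison. Their part in the values of the members was not tested.

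Of the histone and chromatin protein list 5 genes were members, and of the cell division list 2. The chromatin protein gene hmgb1b had 856, 1059, 1046 and 1122 CPM in control libraries, 389, 438, 153, 144 and 147 CPM in depleted and 598, 772, 728, 718 and 615 CPM in recovering replicates 1 to 5. It was lowest in depleted testes and stayed under every control value in recovering ones. It rose by 1.16 (SE 0.29, edgeR adjusted p = 0.00467), and 4 of the 5 members of the list rose, while h2ax1 was not called. Over all 29 genes of the list tested, 11 rose and 9 fell, beside 28.7% higher and 30.5% lower of all genes tested. The proliferation marker mki67 and TOP2A, a topoisomerase of dividing cells, rose by 2.16 (SE 0.47) and 2.41 (SE 0.52), with edgeR adjusted p-values of 0.00231 and 0.0021. All 30 cell division genes tested rose. FOXM1, a transcription factor of dividing cells outside that list, rose by 3.14 (SE 0.81, edgeR adjusted p = 0.00573), from a depleted mean of 67.1 ± 89.7 CPM to 704 ± 195 CPM (SD, n = 5 each).

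Of the glycolysis and phosphate transfer list, 3 genes were members, and all 3 rose. CKB, a creatine kinase, had 2153, 2105, 2098 and 1982 CPM in control libraries, 593, 1503, 443, 574 and 478 CPM in depleted and 1638, 2146, 1915, 2520 and 1942 CPM in recovering replicates 1 to 5. Recovering values lay on both sides of the control range and above every depleted one (1.19 on the log2 scale, SE 0.32, edgeR adjusted p = 0.00675). The adenylate kinase gene AK7 rose by 2.63 (SE 1.04, edgeR adjusted p = 0.0422), a call lost without any one of 12 of the 14 libraries, with edgeR adjusted p-values up to 0.0858. Over the 46 genes of glycolysis and phosphate transfer tested, 12 rose and 14 fell. These counts are near the shares of all genes tested, 28.7% higher and 30.5% lower.

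**Figure D4:**
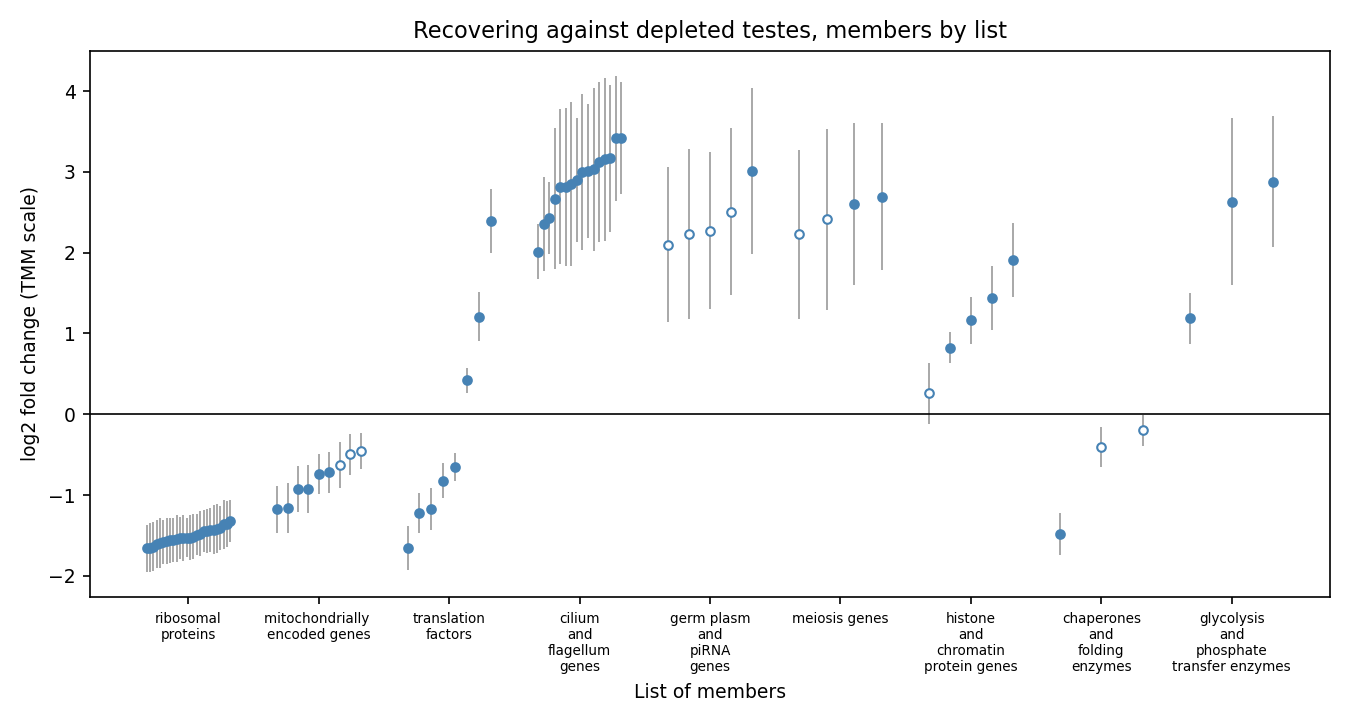
Fitted log2 fold change of members in recovering against depleted testes on the TMM scale, by gene list; bars are standard errors, filled points have an edgeR adjusted p under 0.05 and open points do not. The 26 members of the ribosomal protein list lie between -1.66 and -1.32, and the 16 cilium genes between 2.01 and 3.42.

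Of 3 chaperone and folding members, 1 was called in recovering against depleted testes. HSP90AB1, a cytosolic chaperone and second of all members by control mean, had 4368, 4454, 4043 and 4762 CPM in control libraries. It had 3911, 3852, 3631, 4516 and 4612 CPM in depleted and 4216, 4857, 4587, 4508 and 4389 CPM in recovering replicates 1 to 5. The groups overlapped, and the change was -0.20 on the log2 scale (SE 0.19, edgeR adjusted p = 0.376). Its direction depends on the scale, since the mean CPM was higher in recovering than in depleted testes while the TMM-scaled fold change is negative. HSPA8, another cytosolic chaperone, ranged from 1624 to 3805 CPM in depleted and from 2324 to 3222 CPM in recovering testes (-0.40 on the log2 scale, SE 0.25, edgeR adjusted p = 0.171). The third member, the prolyl isomerase gene ppiaa, fell by 1.48 (SE 0.27, edgeR adjusted p = 0.000834). Over all 111 genes of the list tested, 31 rose and 24 fell, beside 28.7% higher and 30.5% lower of all genes tested.

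Of 9 RNA-binding and splicing members, which include DDX4, 3 rose and 2 fell. The 3 that rose were hnrnpa0l, DDX5 and RBM8A, and the 2 that fell were cirbpb and YBX1. The splicing regulator gene hnrnpa0l rose by 0.84 (SE 0.20, edgeR adjusted p = 0.00421), with means of 855 ± 40.2 CPM in control (SD, n = 4), 375 ± 118 CPM in depleted and 836 ± 101 CPM in recovering testes (SD, n = 5 each). Over all 125 genes of the list tested, 51 rose and 17 fell. Both ubiquitin and proteasome members rose, and 68 rose and 13 fell of 134 tested.

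Both actin members had negative fitted changes in recovering against depleted testes, and 1 of them was called. The cytoplasmic actin gene actb2 had 2198, 1251, 1455 and 2005 CPM in control libraries, 7576, 7353, 12694, 12105 and 13531 CPM in depleted and 6481, 2810, 1844, 5364 and 4933 CPM in recovering replicates 1 to 5. Depleted values lay above all others, and it fell by 1.65 (SE 0.39, edgeR adjusted p = 0.0034). Its paralogue actb1 had a fitted change of -0.59 on the log2 scale (SE 0.28, edgeR adjusted p = 0.0801). The tubulin gene tubb4b had 0.24 (SE 0.18, edgeR adjusted p = 0.26). With library totals its change was 0.56, and it was called higher. Of 42 actin cytoskeleton genes tested, 6 rose and 20 fell, and of 14 tubulin genes 6 rose and 4 fell.

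Of the markers of somatic cell types in the lists, krt8, insl3, gsdf and DMRT1 were members. The keratin gene krt8, an intermediate filament gene of simple epithelia, had 604, 475, 430 and 753 CPM in control libraries, 5965, 3673, 6152, 6861 and 6108 CPM in depleted and 2629, 882, 502, 1602 and 2317 CPM in recovering replicates 1 to 5. All depleted values lay above all recovering values, and krt8 had the largest fall of all members called, by 2.17 (SE 0.42, edgeR adjusted p = 0.00117). All epithelial markers together held from 0.0886 to 0.190% of control, from 1.18 to 1.52% of depleted and from 0.117 to 0.758% of recovering libraries, and 4 rose and 8 fell of 16 tested. Their part in the krt8 values was not tested.

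The Leydig cell hormone gene insl3 had 798, 483, 644 and 883 CPM in control libraries. Depleted replicates 1 to 5 had 2523, 7826, 1541, 5163 and 267 CPM, from under the control range to far above it, and recovering replicates had 2148, 2271, 1872, 2182 and 2488 CPM. The recovering values were close to each other and all above the control values. From depleted to recovering testes the change was -0.97 on the log2 scale (SE 0.58, edgeR adjusted p = 0.164); without depleted replicate 5 it was -1.28 and called (edgeR adjusted p = 0.022). All Leydig cell markers together held from 0.0831 to 0.160% of control, from 0.0815 to 1.21% of depleted and from 0.293 to 0.417% of recovering libraries, and 8 of 9 tested fell. The members of the Sertoli cell marker list were gsdf, a growth factor of the TGF-beta family, and DMRT1, a transcription factor of the male gonad. Neither was called, with fitted changes of -0.62 on the log2 scale (SE 0.31, edgeR adjusted p = 0.0984) and -0.24 (SE 0.18, edgeR adjusted p = 0.276). Sertoli cell markers held from 0.158 to 0.218, from 0.211 to 0.410 and from 0.172 to 0.331% in control, depleted and recovering libraries, and 1 of 9 tested rose and 5 fell.

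The lists held 98 of the 192 members (51%). Of the 94 others, 76 rose and 9 fell in recovering against depleted testes, their median log2 fold change was 1.76, and together they held 7.80% of control, 4.06% of depleted and 6.53% of recovering counts on average. The 25 members without a symbol gave 18 rises and 4 falls. Beside both counts, 112 of all 192 members rose and 51 fell, and 28.7% of all genes tested rose and 30.5% fell. ENSDARG00000087466 had the largest rise of all members, by 3.82 (SE 0.87, edgeR adjusted p = 0.00296), from a depleted mean of 28.0 ± 38.1 CPM to 473 ± 139 CPM (SD, n = 5 each). ENSDARG00000002480, number 5 by control mean, rose by 2.81 (SE 1.08, edgeR adjusted p = 0.0377), a call lost without any one of 8 libraries, with edgeR adjusted p-values up to 0.076.

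In recovering against control testes, where control values chose the members, 0 of the 192 were called by edgeR, where 0.451% of all genes were called. At an unadjusted p under 0.05 there were 33 members (17.2%), beside 16% of all genes. DESeq2 called 14 members (7.29%), 11 higher and 3 lower, beside 6.36% of all genes tested. An edgeR fit of only the recovering and control libraries called 22 members (11.5%), 12 higher and 10 lower, beside 6.01% of all genes. The median log2 fold change was -0.18, against -0.01 over all genes, and 117 members had a negative one. By CPM, 123 members (64.1%) had a recovering mean below their control mean. The same count was not made over all genes. Choosing genes by high control values favours such a count, so nothing is read from it.

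The highest fold changes in recovering against control testes were those of insl3, at 1.71 (SE 0.64, edgeR adjusted p = 0.208), krt8, at 1.56 (SE 0.44, edgeR adjusted p = 0.103), and actb2, at 1.39 (SE 0.41, edgeR adjusted p = 0.118). In the fit of recovering and control libraries alone insl3 was called (log2 fold change 1.75, edgeR adjusted p = 0.00766). Without recovering replicate 3, krt8 and actb2 were called, with edgeR adjusted p-values of 0.0305 and 0.0472, and DESeq2 called both. The lowest were ENSDARG00000082753, at -1.29 (SE 0.47, edgeR adjusted p = 0.198), the calcium-binding parvalbumin gene PVALB, at -1.05 (SE 0.60, edgeR adjusted p = 0.43), and plekhg4, at -0.82 (SE 0.34, edgeR adjusted p = 0.253). ENSDARG00000082753 was uneven among control libraries, with 236, 730, 806 and 412 CPM, and its recovering values, from 124 to 296 CPM, overlapped them. PVALB had 692, 564, 926 and 445 CPM in control and 290, 341, 268, 319 and 293 CPM in recovering libraries, and its 2 groups of values did not overlap. In the fit of recovering and control libraries alone PVALB and plekhg4 were called, with changes of -1.02 and -0.80 on the log2 scale and edgeR adjusted p-values of 0.0291 and 0.0285. The mitochondrially encoded members had a median log2 fold change of 1.08 and the members of the ribosomal protein list of 0.58, with 0 called in either list by edgeR over all libraries. DESeq2 called 6 mitochondrially encoded members higher, MT-ATP6, MT-CYB, MT-ND4, MT-ND1, MT-ND5 and MT-ND2, and so did the fit of recovering and control libraries alone. With library totals MT-ND1 was called, and DESeq2 called 0 ribosomal members.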

How the data were processed

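Per the labels' protocols, total RNA of testis tissue was made into Illumina TruSeq RNA libraries. The authors deposited whole-number counts per Ensembl gene identifier, 1 file per sample. FastQC 0.10.1, TopHat2 2.0.5, SAMtools 0.1.18, HTSeq, DESeq and the build Zv9 are listed in the submitters' processing notes; their roles, strand setting and treatment of shared reads are not given in the sources used here. Titles of the samples gave group and replicate number. The labels also name a control replicate 2, not analysed here.

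CPM used file totals. edgeR 4.0.16 (R 4.3.3) was run on the counts as deposited, with filterByExpr (21277 genes, 99.8% of counts), TMM scaling, group as the only term over all 14 libraries, the quasi-likelihood F-test and Benjamini-Hochberg adjustment over all genes per comparison. The standard error is the log2 fold change over the square root of F. DESeq2 1.42.0 was an alternative, with other scalings, filters, sample sets and member rules. The scripts were tested on simulated data. Symbols came from a table that pairs 21948 of the 33752 identifiers with a symbol.

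The members and gene lists were chosen with earlier results of these data known. A gene of the ribosomal pattern that is no ribosomal protein, RPS19BP1, was taken off the list after its values were seen, and PKMYT1, a kinase, off the glycolysis list by name. Genes named are the 10 highest control means, the 8 largest rises and 8 largest falls called in recovering against depleted testes, the 3 highest and 3 lowest in recovering against control testes, the 2 highest control means of each list with enough members, and those next to the limit. Other members named, among them those of counts of 5 or fewer, were chosen after their values were seen. A total of 3 counts is 0.0617 to 0.369 CPM, so that the lowest depleted values rest on few reads, and reads carry no molecular identifiers. A gene that the rule names is not reported here.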

Additional observations from a re-analysis of the deposited data

Results flagged for a closer look

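Single libraries that stood apart from the rest of their group were looked for in 222 sets of values (library totals, shares of gene lists and named genes, per group), of which chance alone marks about 1 in 20, or 11.1; 14 were found. Control replicate 5 had 48646941 counts, against 11525600 in the next control library. It also had the highest EFHC2 (753 CPM, next 597) and EEF1G (630 CPM, next 493). Control replicate 1 had the highest share of leukocyte markers (0.0874%, next 0.0445%) and of endothelial markers (0.00357%, next 0.00187%), and the highest ENSDARG00000002480 (3190 CPM, next 2905).

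Depleted replicate 2 accounted for 5. It was highest for the members of glycolysis and phosphate transfer (0.185%, next 0.0745%), for CKB among them (1503 CPM, next 593) and for SAXO2 (83.6 CPM, next 23.5). It was lowest for krt8 (3673 CPM, next 5965), the only epithelial member, whose share was 0.367% (next 0.597%). Recovering replicate 3, the deepest of its group, was highest for TDRD6 (1845 CPM, next 1090), pabpc1b (915 CPM, next 528) and hydin (971 CPM, next 631).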

How the results depend on the processing

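Changes of sign were looked for in the 43 members named by rule, not in the other genes named. None of the 43 that was called in a comparison, and no median of the members, changed sign there under the alternatives run. Uncalled changes that did were those of HSP90AB1 and ENSDARG00000082753 in recovering against depleted testes, HSP90AB1 in depleted against control testes, and dnah5l, CKB, DDX4, hnrnpa0l and ENSDARG00000087466 in recovering against control testes. The split of all genes called in recovering against depleted testes went from 6098 higher and 6500 lower to 7665 and 4464 with library totals and to 6754 and 6565 with DESeq2. In depleted against control testes it went from 7273 and 6833 to 5565 and 8591 with library totals and to 7129 and 7539 with DESeq2. In depleted against control testes, 41 members were called under a limit of 1000 CPM and 92 among the 100 genes with the highest control mean, since these sets hold fewer genes; in recovering against depleted testes 38 and 85 were. The median log2 fold change in depleted against control testes was -2.03 with library totals and -1.18 under the limit of 1000 CPM. The share in control, depleted and recovering testes was 8.66, 10.9 and 9.92% under the limit of 1000 CPM, 12.8, 15.4 and 14.3% for the 100 genes, and 16.4, 16.6 and 16.5% without mitochondrially encoded genes. DESeq2 gave 29 members no adjusted p; it lost none of the other calls in any comparison and gained 6, 10 and 14 in depleted against control, recovering against depleted and recovering against control testes.

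Recovering against control testes depended most on the fit; the cause was not tested. Of all genes, 96 were called, 1353 by DESeq2, 236 with libraries under 20000000 counts, 1254 in a fit of only those groups, 9 with the replicate block and 0 to 556 when leaving out 1 library. Members called there were 14 by DESeq2, 1 (MT-ND1) with library totals, 2 (MT-CYB and krt8) with libraries under 20000000 counts, 22 with only those groups and 0 to 6 when leaving out 1 library.

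Leaving out 1 library gave 12741 to 14923 genes and 167 to 181 members called in depleted against control testes, and 10717 to 13874 genes and 143 to 173 members in recovering against depleted testes. Medians ranged from -1.90 to -1.49, from 1.15 to 1.51 and from -0.27 to -0.12, and shares from 17.9 to 18.1, 20.4 to 21.9 and 18.7 to 19.8%. Same-numbered libraries did not deviate together on average (mean correlation 0.0245 over 13 pairs, against -0.00609 over 52 pairs of different number). This cannot show that the samples were unpaired, and their titles do not say whether equal numbers pair them. With the replicate block, 179 members were called in depleted against control, 171 in recovering against depleted and 0 in recovering against control testes. Of all genes, 13896, 12017 and 9 were called in the same order. Depth was no limit for members in control testes. In depleted replicate 5, 41 members lay under 5 CPM, although it had the most counts of the depleted libraries (10059498).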
